A study of Mus musculus with 4 samples.

Results

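The genes described here encode the receptors for glutamate, GABA, glycine and nicotinic acetylcholine signals. They were taken from the gene tables by symbol, as the Gria, Grik, Grin, Grid, Grm, Glra and Glrb, Gabr, Gabbr, Chrna and Chrnb families, and this gave 67 of the 25239 symbols. The pattern left out the other subunits of the muscle nicotinic receptor, which are given further on with the partner genes. Of the 67 symbols, 65 were protein coding in GENCODE release M21, and the other two, Chrna1os and Grin1os, were antisense genes. By class they were 4 AMPA, 5 kainate, 7 NMDA, 2 delta, 8 metabotropic glutamate, 5 glycine, 19 GABA-A, 2 GABA-B and 13 nicotinic genes. In all, 40 of the 67 reached 1 TPM (a transcript level scaled for gene length and library total) in at least 1 library. Of all 25239 symbols, 15049 did so, a share close to that of the family.

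The tissue was the mouse cochleovestibular ganglion, which holds the auditory and vestibular sensory neurons, taken at embryonic day 11.5. Each of 4 genotypes had 1 RNA-seq library: DKO (both genes targeted), Isl1CKO (Isl1 conditionally deleted, by its label), Pou4f1KO (Pou4f1 knocked out) and control. Isl1 and Pou4f1 encode homeodomain transcription factors of sensory neurons. The driver of the conditional deletion, the alleles of the control animals and the number of embryos behind a library were not given in the sources used here.

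Ligand-gated receptors are assembled from several subunits around an ion channel, and their subunit make-up sets ion permeability, kinetics and ligand sensitivity. Glutamate opens AMPA, kainate and NMDA receptors, glycine and GABA open chloride channels, and acetylcholine opens nicotinic cation channels, while the metabotropic glutamate and GABA-B receptors act through G proteins. In the mature ear, afferent neurons receive glutamate from hair cells largely through AMPA receptors, and efferent fibres release acetylcholine.

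The targeted genes were read first. Pou4f1 had 14.6 TPM in the DKO library, 188 TPM in the Isl1CKO library, 16.6 TPM in the Pou4f1KO library and 146 TPM in the control library, so it was low in both libraries labelled as lacking it. Isl1 had 579 TPM in the library labelled DKO, 854 in that labelled Isl1CKO, 340 in Pou4f1KO and 450 in control, and so was not low in the libraries labelled as lacking it. RNA from undeleted exons also counts in such a value. The Isl1 part of both labels therefore goes unchecked, and in the comparisons DKO and Isl1CKO stand for the libraries so labelled.

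Coverage divided by FPKM gave the depth, which was 13.6 gigabases of aligned sequence in Isl1CKO and 16.1 to 16.6 in the others. A gene at 1 TPM had a mean coverage of 4.95 to 5.93 reads per base. All 16 sensory and pan-neuronal markers reached 1 TPM, with summed levels of 13438 TPM in the library labelled DKO, 15173 in that labelled Isl1CKO, 15372 in Pou4f1KO and 14064 in control. On log2 ratios of (TPM + 1), 8 of the 16 were lower in DKO than in control, 3 of them at least 2-fold. These 3 were Neurog1, Prph and Ntrk2. Between DKO and Pou4f1KO, 15 of the 16 were lower in DKO. Prph is also among the 12 genes of the pan-neuronal scaling used further on. Markers of other cells were also present: 15 of 17 hindbrain and neural tube genes reached 1 TPM and summed to 58.9 TPM in the library labelled DKO, 58.3 in that labelled Isl1CKO, 105 in Pou4f1KO and 28.6 in control. Of the 17, Pax7 and En1 were listed at 0 in the libraries labelled DKO and Isl1CKO, and Dbx1 and Ptf1a in that labelled Isl1CKO. Lhx1, Lhx2 and Pax2, at 28.8, 12.2 and 10.5 TPM, made up most of the Isl1CKO sum, and Pax2, at 14.4 TPM, was the largest part of the control sum. For Isl1CKO over control, 2 of the 15 compared genes (Lhx1 and Lhx2) were at least 2-fold higher and 8 were lower. The 8 Hox genes read summed to 42.0 TPM in DKO, 34.8 in Isl1CKO, 96.1 in Pou4f1KO and 34.5 in control. For Pou4f1KO over control, 7 of those 8 were at least 2-fold higher. The otic epithelium list, with all 11 genes at 1 TPM, summed to 188 TPM in the library labelled DKO, 420 in that labelled Isl1CKO, 303 in Pou4f1KO and 682 in control. In bulk RNA, fewer cells of a type and less RNA per cell cannot be told apart. With 1 library per genotype no difference here has a replicate check, and no p-value was computed.

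The start regions of a few of these genes are shown first, for those that moved together or differed most with 1 of the labels. Chrna5, Chrna3 and Chrnb4, which encode subunits of the ganglionic type of nicotinic receptor, lie side by side on chromosome 9 between 54980880 and 55048544 (mm10). Grm2, which encodes a metabotropic glutamate receptor, and Grik3, which encodes a kainate receptor subunit, differed most with the Pou4f1 and the Isl1 label. Each line gives the 250 bases before the annotated start in RefSeq (GRCm38.p6), 5′ to 3′ on the strand of the gene. Capitals mark TAAT, the core that homeodomain factors bind, and GGGCGG, a GC box, on either strand.
Chrna5, chr9:54980630-54980879, plus strand: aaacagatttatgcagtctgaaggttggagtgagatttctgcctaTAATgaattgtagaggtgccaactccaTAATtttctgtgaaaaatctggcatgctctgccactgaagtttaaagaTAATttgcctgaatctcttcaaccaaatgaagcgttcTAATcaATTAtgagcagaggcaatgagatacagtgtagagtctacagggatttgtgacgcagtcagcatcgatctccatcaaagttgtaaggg
Chrna3, chr9:55026563-55026812, minus strand: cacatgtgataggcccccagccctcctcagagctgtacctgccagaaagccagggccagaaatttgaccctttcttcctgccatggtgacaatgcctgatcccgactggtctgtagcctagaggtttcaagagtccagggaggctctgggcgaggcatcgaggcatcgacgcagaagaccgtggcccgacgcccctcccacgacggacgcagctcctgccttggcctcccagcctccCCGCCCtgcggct
Chrnb4, chr9:55048545-55048794, minus strand: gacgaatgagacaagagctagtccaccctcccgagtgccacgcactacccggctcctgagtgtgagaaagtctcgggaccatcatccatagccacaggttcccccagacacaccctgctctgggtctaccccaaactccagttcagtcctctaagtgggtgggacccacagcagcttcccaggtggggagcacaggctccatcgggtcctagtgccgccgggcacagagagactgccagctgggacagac
Grm2, chr9:106656110-106656359, minus strand: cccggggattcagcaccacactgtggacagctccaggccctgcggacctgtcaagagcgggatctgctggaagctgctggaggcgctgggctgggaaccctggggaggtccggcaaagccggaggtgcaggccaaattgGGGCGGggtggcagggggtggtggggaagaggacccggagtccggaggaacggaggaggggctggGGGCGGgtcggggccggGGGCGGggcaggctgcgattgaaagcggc
Grik3, chr4:125490446-125490695, plus strand: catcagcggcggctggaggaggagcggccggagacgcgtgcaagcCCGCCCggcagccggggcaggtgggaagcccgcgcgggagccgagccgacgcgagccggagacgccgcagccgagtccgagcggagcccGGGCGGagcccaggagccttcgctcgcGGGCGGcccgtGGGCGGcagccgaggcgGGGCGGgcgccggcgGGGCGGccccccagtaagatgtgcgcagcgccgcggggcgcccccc

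The printed Chrna5 window held 5 copies of TAAT and was 40.0% G and C, whereas the windows of Chrna3, Chrnb4, Grm2 and Grik3 held none. A second annotated start of Chrna5, 608 bases downstream, had a window with 0 copies of TAAT, 4 of GGGCGG and 65.2% G and C. The Grik3 window held 6 copies of GGGCGG and was 82.0% G and C, and the Grm2 window held 3 copies and was 71.2% G and C. Of all 32851 RefSeq windows of this length, 54.9% held TAAT and 32.7% held GGGCGG on either strand. In all, 11 windows were read, of Chrna3 and of the 7 of 10 genes at least 2-fold apart (defined below) that matched by symbol. Glra1, Grik1 and Grin3a had no window. TAAT was in 3 of the 11, from Chrna5 and Grm8, and GGGCGG was in 6. The longer letters TAATTA, ATAATTAAT and CTAATG, each of which contains TAAT, were in 0 of the 11, against 4.84%, 0.259% and 6.36% of all windows. These matches describe letters in these windows only.

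At the level of the whole family, 36 members reached 1 TPM in the library labelled DKO, 35 in that labelled Isl1CKO, 39 in Pou4f1KO and 35 in control. Of all 25239 symbols, 14355 did so in DKO, 14284 in Isl1CKO, 14358 in Pou4f1KO and 14412 in control. There were 33 members at 1 TPM in all 4 libraries and 11 at 10 TPM in all 4. The summed level was 694 TPM in the library labelled DKO, 651 in that labelled Isl1CKO, 806 in Pou4f1KO and 618 in control, so the sum was highest in Pou4f1KO and lowest in control. In what follows, 2-fold means a log2 ratio of (TPM + 1) of at least 1 in size, which is stricter than a plain 2-fold TPM ratio for genes of low level. Among the 40, the Pou4f1KO library held the highest value for 20 and the control library the lowest for 19. Gabre, Gabrq and Glra1 passed the 1 TPM filter through Pou4f1KO alone, which fixes it as their highest library. The matching counts over all genes were not taken, so these counts have no background beside them.

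**Figure D1:**
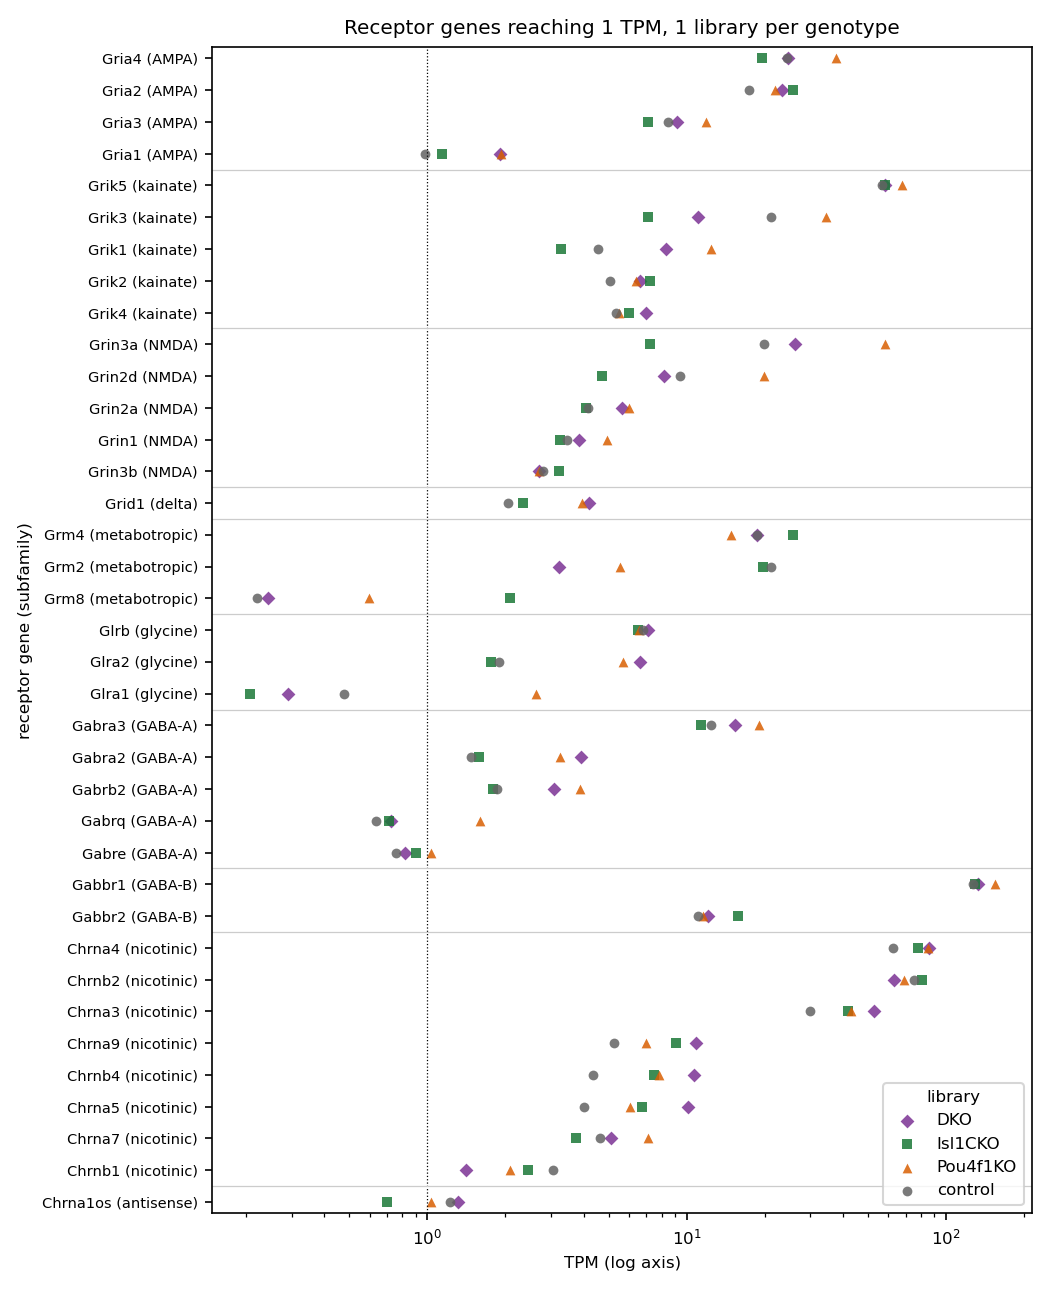
TPM (log axis) of 37 of the 40 receptor genes that reached 1 TPM, grouped by class, with 1 point per library. The dotted line marks 1 TPM. Gabbr1 and the nicotinic genes Chrna4 and Chrnb2 stand farthest right in all 4 libraries, while Grm8 and Glra1 lie below the line in all but 1 library.

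Among the AMPA receptor genes, which encode the subunits of the main fast glutamate receptor, all 4 reached 1 TPM. Gria4 had 24.6 TPM in the library labelled DKO, 19.5 in that labelled Isl1CKO, 37.6 in Pou4f1KO and 24.3 in control. Gria2, whose edited subunit keeps the channel nearly closed to calcium, had 23.3 TPM in the library labelled DKO, 25.7 in that labelled Isl1CKO, 21.9 in Pou4f1KO and 17.3 in control. Gria4 was highest in Pou4f1KO, whereas Gria2 was lowest in control. Gria3 lay between 7.11 TPM in Isl1CKO and 11.9 TPM in Pou4f1KO, and Gria1 had up to 1.92 TPM in Pou4f1KO, against 0.974 TPM in control. On the level scale, Gria2 exceeded Gria1 by a ratio of 12.2 in DKO, 22.6 in Isl1CKO, 11.4 in Pou4f1KO and 17.8 in control. None of the 4 was 2-fold apart in any comparison.

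The 5 kainate receptor genes summed to 91.0 TPM in the library labelled DKO, 82.0 in that labelled Isl1CKO, 127 in Pou4f1KO and 93.0 in control. Grik5, a subunit that needs a low-affinity partner to form a channel, was the most abundant, with 58.0 TPM in the library labelled DKO, 58.5 in that labelled Isl1CKO, 67.7 in Pou4f1KO and 56.9 in control. Grik3 and Grik1 encode such low-affinity partners, and here the libraries stood apart. Grik3 (chromosome 4, 125490696 to 125714173, plus strand) had 11.1 TPM in the library labelled DKO, 7.11 in that labelled Isl1CKO, 34.6 in Pou4f1KO and 21.2 in control. It was lower in each library that carries the Isl1 label than in its counterpart without it, by a log2 ratio of (TPM + 1) of -1.45 for Isl1CKO over control and -1.56 for DKO over Pou4f1KO. Grik1 (chromosome 16, 87895897 to 88290265, minus strand) had 8.32 TPM in the library labelled DKO, 3.27 in that labelled Isl1CKO, 12.4 in Pou4f1KO and 4.53 in control. It was higher with the Pou4f1 label, at 1.28 for Pou4f1KO over control and 1.13 for DKO over Isl1CKO. Grik3 was also higher in these comparisons, at 0.68 and 0.58. With the Isl1 label Grik1 was lower, as Grik3 was, at -0.37 for Isl1CKO over control and -0.53 for DKO over Pou4f1KO. The 2 genes thus had the same signs and differed in size. A gene on the opposite strand, 4930590A17Rik, overlaps Grik1 and had 0.220 TPM in the library labelled DKO, 0.113 in that labelled Isl1CKO, 1.15 in Pou4f1KO and 0.172 in control. Whether the counting used strand was not given in the sources used here, so the part of these overlapping genes in each other's values was not tested. Grik2 lay between 5.07 and 7.23 TPM and Grik4 between 5.36 and 6.96 TPM.

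NMDA receptors need GluN1, the product of Grin1, and in these ganglia Grin1 was low beside Grin3a, which encodes a GluN3 subunit that lowers calcium flux. Grin3a (chromosome 4, 49661611 to 49845769, minus strand) had 26.1 TPM in the library labelled DKO, 7.20 in that labelled Isl1CKO, 58.4 in Pou4f1KO and 19.9 in control. Grin1 had 3.83 TPM in the library labelled DKO, 3.25 in that labelled Isl1CKO, 4.92 in Pou4f1KO and 3.47 in control. Grin1 thus lay within a narrow range, whereas Grin3a ran from its lowest level in Isl1CKO to its highest in Pou4f1KO, and the level of Grin3a over that of Grin1 was 6.80 in DKO, 2.22 in Isl1CKO, 11.9 in Pou4f1KO and 5.74 in control. The log2 ratio of Grin3a was -1.35 for Isl1CKO over control, -1.13 for DKO over Pou4f1KO, 1.51 for Pou4f1KO over control and 1.72 for DKO over Isl1CKO. Scaling by 12 pan-neuronal genes brought DKO over Pou4f1KO to -0.89, under 2-fold. The DKO library, which carries both labels, lay within 0.37 of control on this scale. A phosphatase subunit gene on the same strand within Grin3a, Ppp3r2, had 0.263 TPM in the library labelled DKO, 0.155 in that labelled Isl1CKO, 1.31 in Pou4f1KO and 0.610 in control.

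Grin2d (chromosome 7, 45832483 to 45866681, minus strand), which encodes a GluN2 subunit typical of early development, had 8.18 TPM in the library labelled DKO, 4.72 in that labelled Isl1CKO, 19.9 in Pou4f1KO and 9.39 in control. It followed the same order as Grik3, with log2 ratios of -0.86 for Isl1CKO over control, -1.19 for DKO over Pou4f1KO and 1.01 for Pou4f1KO over control. The value of 1.01 stood at the edge of 2-fold and was 0.84 under pan-neuronal scaling and 0.86 on FPKM. FPKM was lower than TPM in each library, so the same pseudocount weighs more on FPKM. Grin2a lay between 4.09 TPM in Isl1CKO and 5.97 TPM in Pou4f1KO, and Grin3b between 2.68 and 3.23 TPM. Grin2b and Grin2c, the other GluN2 genes, were below 1 TPM in all 4 libraries.

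**Figure D2:**
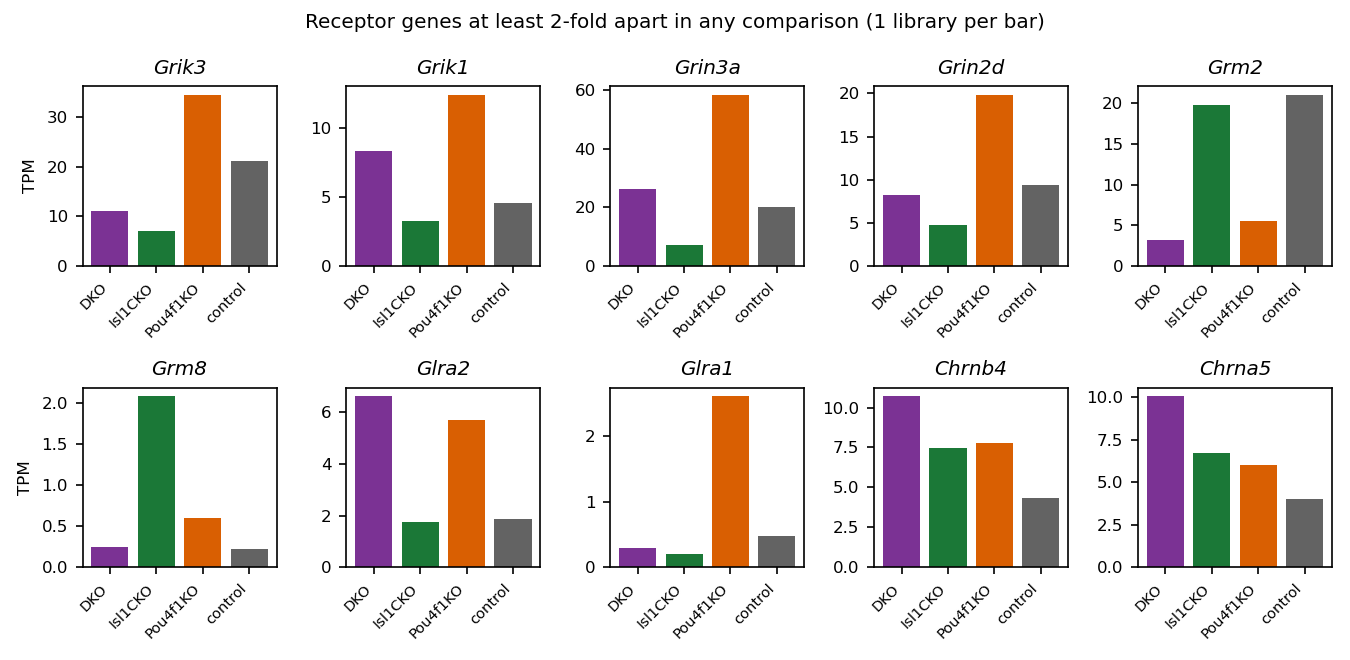
TPM (linear axes that start at 0, each with its own scale) of the 10 receptor genes at least 2-fold apart in any comparison, 1 bar per library, with no error bars because each genotype has 1 library. Grik3, Grin3a and Grin2d have their lowest bar in Isl1CKO and their highest in Pou4f1KO, and Grm2 is low in DKO and Pou4f1KO.

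Delta receptors resemble glutamate receptors in sequence and join synapses through secreted cerebellins. Grid1 had 4.20 TPM in the library labelled DKO, 2.34 in that labelled Isl1CKO, 3.96 in Pou4f1KO and 2.05 in control. It was higher in DKO and Pou4f1KO than in Isl1CKO and control, and DKO over control was 2.05 as a plain TPM ratio but under 2-fold on the log2 scale of (TPM + 1).

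Of the 8 metabotropic glutamate receptor genes, only Grm4, Grm2 and Grm8 reached 1 TPM. All 3 encode receptors that couple to inhibitory G proteins. Grm2 (chromosome 9, 106644534 to 106656109, minus strand) had 3.22 TPM in the library labelled DKO, 19.8 in that labelled Isl1CKO, 5.53 in Pou4f1KO and 21.1 in control. It was low in both libraries that carry the Pou4f1 label, with log2 ratios of -2.39 for DKO over control, -2.30 for DKO over Isl1CKO and -1.76 for Pou4f1KO over control, and as TPM it was 6.55-fold lower in DKO than in control. Otic epithelium genes were low in the same libraries, with 10 of 11 at least 2-fold lower for DKO over control and 9 of 11 for Pou4f1KO over control. For Isl1CKO over control 2 of 11 were at least 2-fold lower, but all 11 were lower, with a median log2 ratio of -0.75, while Grm2 was at -0.09. The part of otic epithelium in the level of Grm2 was not tested. Grm4 had 18.7 TPM in the library labelled DKO, 25.8 in that labelled Isl1CKO, 14.8 in Pou4f1KO and 18.6 in control. The balance between these 2 genes differed, and the level of Grm4 over that of Grm2 was 5.83 in DKO, 1.30 in Isl1CKO, 2.68 in Pou4f1KO and 0.884 in control. The deposited coverage of Grm4 was only 0.329 of what its TPM would give, and on coverage the same ratio was 1.92 in DKO, 0.429 in Isl1CKO, 0.882 in Pou4f1KO and 0.291 in control. Grm8 (chromosome 6, 27275121 to 28135146, minus strand) had 0.242 TPM in the library labelled DKO, 2.08 in that labelled Isl1CKO, 0.593 in Pou4f1KO and 0.220 in control, and so entered the comparisons through Isl1CKO alone. The 5 others were below 1 TPM in all 4 libraries.

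Glycine receptors combine alpha subunits with the beta subunit of Glrb, which anchors them to gephyrin. Glrb was nearly level, with 7.11 TPM in the library labelled DKO, 6.48 in that labelled Isl1CKO, 6.55 in Pou4f1KO and 6.79 in control. Glra2 (chromosome X, 165129017 to 165327867, minus strand), the alpha subunit typical of the embryo, had 6.63 TPM in the library labelled DKO, 1.76 in that labelled Isl1CKO, 5.69 in Pou4f1KO and 1.88 in control. It was therefore higher in both libraries that carry the Pou4f1 label, at log2 ratios of 1.40 for DKO over control, 1.47 for DKO over Isl1CKO and 1.21 for Pou4f1KO over control. Relative to Glrb, the Glra2 level was 0.932 in DKO, 0.271 in Isl1CKO, 0.869 in Pou4f1KO and 0.278 in control. Its deposited coverage was only 0.082 of what its TPM would give, with 3.16 reads per base in DKO, 0.712 in Isl1CKO, 2.69 in Pou4f1KO and 0.925 in control. On coverage the 3 log2 ratios were 0.34 to 0.43, because the same pseudocount then weighs more, and Glra2 over Glrb was 0.080 in DKO, 0.024 in Isl1CKO, 0.076 in Pou4f1KO and 0.025 in control.

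Glra1 (chromosome 11, 55514239 to 55608198, minus strand), the alpha subunit of the adult spinal cord and brainstem, showed another pattern. It had 0.289 TPM in the library labelled DKO, 0.206 in that labelled Isl1CKO, 2.61 in Pou4f1KO and 0.475 in control, so it passed 1 TPM in Pou4f1KO alone. Its log2 ratio was 1.29 for Pou4f1KO over control and -1.49 for DKO over Pou4f1KO. Most of the hindbrain and neural tube list moved the same way: 13 of its 15 compared genes were at least 2-fold higher in Pou4f1KO than in control, while 1, Pax2, was at least 2-fold lower. In DKO, 11 were at least 2-fold lower than in Pou4f1KO. The part of those cells in the level of Glra1 was not tested. Between the libraries labelled DKO and Isl1CKO the list had like sums, although Sim1 had 8.44 TPM in DKO against 0.746 in Isl1CKO and Lhx1 had 18.9 TPM in DKO against 28.8 in Isl1CKO. Its part in the other receptor genes was not tested either. Glra3 and Glra4 were below 1 TPM in all 4 libraries.

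**Figure D3:**
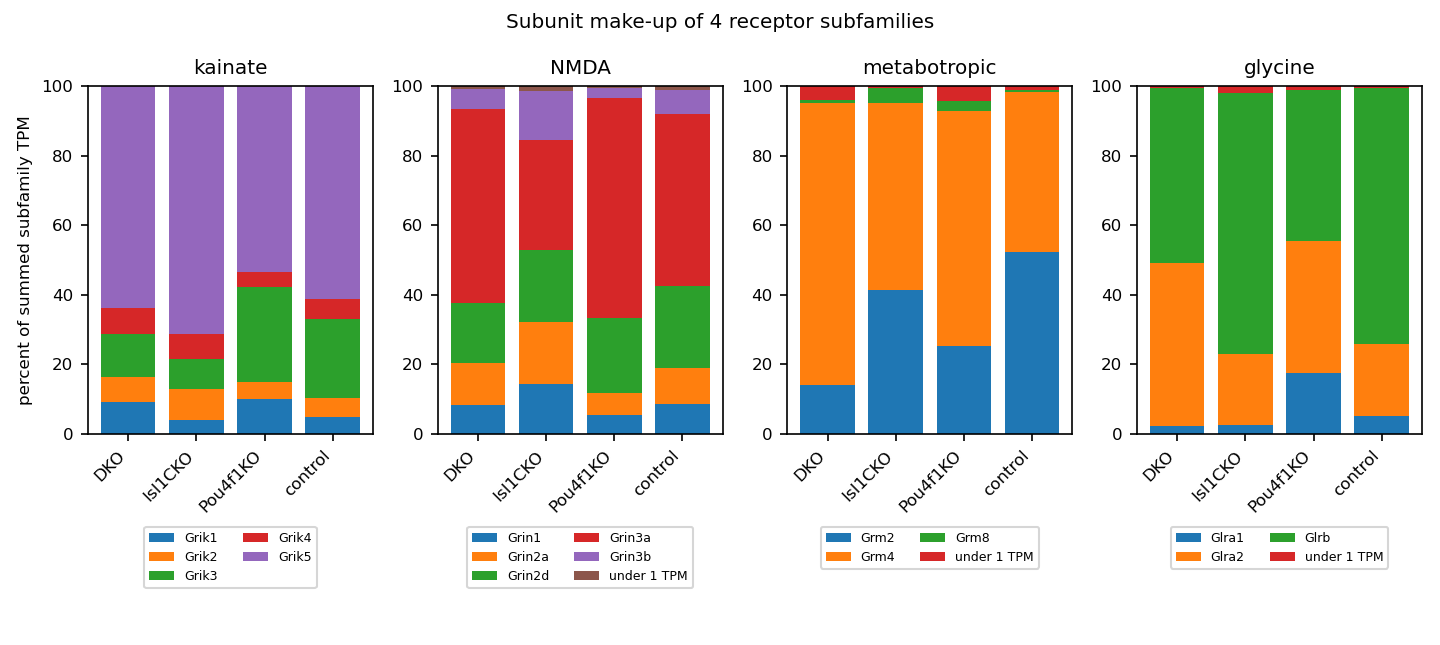
Share of each gene in the summed TPM of the kainate, NMDA, metabotropic glutamate and glycine receptor genes (percent, stacked bars, 1 bar per library), with genes under 1 TPM in all libraries drawn together. Grin3a makes up 63.3% of the NMDA sum in Pou4f1KO and 31.6% in Isl1CKO, and Grm2 13.9% of the metabotropic sum in DKO and 52.2% in control.

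The make-up of each class, as shares of its summed RNA, differed between the libraries. Grin3a made up 55.7% of the NMDA sum in DKO, 31.6% in Isl1CKO, 63.3% in Pou4f1KO and 49.6% in control. Grik3 made up 12.2% of the kainate sum in DKO, 8.66% in Isl1CKO, 27.3% in Pou4f1KO and 22.8% in control. Both shares were lower in each library with the Isl1 label than in its counterpart without it. Grm2 held 13.9% of the metabotropic sum in DKO, 41.2% in Isl1CKO, 25.2% in Pou4f1KO and 52.2% in control. Glra2 held 47.0% of the glycine receptor sum in DKO, 20.4% in Isl1CKO, 37.9% in Pou4f1KO and 20.5% in control. The share of Grm2 was lower, and that of Glra2 higher, with the Pou4f1 label in both backgrounds. On coverage, Grm2 held 30.5% in DKO, 64.8% in Isl1CKO, 46.4% in Pou4f1KO and 75.6% in control. Glra2 held 7.07% on coverage in DKO, 2.18% in Isl1CKO, 4.98% in Pou4f1KO and 2.23% in control, so the shares of both genes depended on the measure. These shares are of RNA and say nothing of assembled receptors.

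The GABA-A receptor genes were the largest class, and 7 of 19 reached 1 TPM. Receptors of alpha, beta and gamma subunits are the common synaptic form. Gabra3, which encodes an alpha subunit, had 15.3 TPM in the library labelled DKO, 11.4 in that labelled Isl1CKO, 19.1 in Pou4f1KO and 12.4 in control. It was highest in Pou4f1KO, with DKO next. Gabra2, another alpha gene, had 3.91 TPM in the library labelled DKO, 1.58 in that labelled Isl1CKO, 3.24 in Pou4f1KO and 1.47 in control, with a log2 ratio of (TPM + 1) of 0.99 for DKO over control and a plain TPM ratio of 2.65. Gabrb2, which encodes a beta subunit, had 3.09 TPM in the library labelled DKO, 1.79 in that labelled Isl1CKO, 3.89 in Pou4f1KO and 1.86 in control. All 7 compared members had positive log2 ratios for Pou4f1KO over control and for DKO over control, with medians of 0.65 and 0.29, and none reached 2-fold on that scale. As plain TPM ratios, Gabra2, Gabrb2 and Gabrq were 2.20, 2.09 and 2.53 for Pou4f1KO over control. The signs were the same under each scaling run. Gabre, at 1.04 TPM, and Gabrq, at 1.596 TPM, reached 1 TPM in Pou4f1KO alone. The 12 others, including Gabra5 and the rho genes, stayed below 1 TPM, and Gabra6 and Gabrd were listed at 0 throughout.

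GABA-B receptors are obligate pairs of the products of Gabbr1 and Gabbr2. Gabbr1 had the highest level of the whole family, with 133 TPM in the library labelled DKO, 130 in that labelled Isl1CKO, 154 in Pou4f1KO and 127 in control. Gabbr2 had 12.1 TPM in the library labelled DKO, 15.8 in that labelled Isl1CKO, 11.5 in Pou4f1KO and 11.1 in control. Gabbr1 exceeded Gabbr2 in each library, by a ratio of 8.24 in Isl1CKO to 13.4 in Pou4f1KO, and neither was 2-fold apart.

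The nicotinic genes had the largest summed level, 241 TPM in the library labelled DKO, 233 in that labelled Isl1CKO, 228 in Pou4f1KO and 190 in control, and 8 of 13 reached 1 TPM. Chrna4 and Chrnb2 encode the partners of the main brain-type nicotinic receptor. Chrna4 had 86.0 TPM in the library labelled DKO, 78.3 in that labelled Isl1CKO, 85.1 in Pou4f1KO and 62.8 in control. Chrnb2 had 63.0 TPM in the library labelled DKO, 81.2 in that labelled Isl1CKO, 69.2 in Pou4f1KO and 75.4 in control. Chrna4 was lowest in control, while Chrnb2 was lowest in DKO.

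The Chrna5, Chrna3 and Chrnb4 genes, whose start regions are printed above, shared their highest and lowest library. Chrna3, the alpha subunit of the ganglionic receptor, had 53.0 TPM in the library labelled DKO, 42.0 in that labelled Isl1CKO, 43.1 in Pou4f1KO and 29.9 in control. Chrnb4, its beta partner, had 10.7 TPM in the library labelled DKO, 7.48 in that labelled Isl1CKO, 7.81 in Pou4f1KO and 4.36 in control. Chrna5, an accessory subunit, had 10.1 TPM in the library labelled DKO, 6.75 in that labelled Isl1CKO, 6.02 in Pou4f1KO and 4.01 in control. All 3 were highest in the library labelled DKO, lowest in control and between in both single mutants. This was not particular to the 3 neighbours. Chrna4 on chromosome 2 and Chrna9 on chromosome 5 had the same highest and lowest library, as had Gabra2, Grid1 and Grik4. The log2 ratios for DKO over control were 1.15 for Chrna5, 1.13 for Chrnb4 and 0.80 for Chrna3. Those for Isl1CKO over control and Pou4f1KO over control were 0.63 and 0.49 for Chrna5 and 0.66 and 0.72 for Chrnb4, all under 2-fold. Chrna5 and Chrna3 overlap tail to tail by 1303 bases, and whether the counting told their reads apart by strand was not given in the sources used here. On FPKM, where the same pseudocount weighs more, Chrna5 and Chrnb4 were each at 0.93, and Chrna5 was at 0.85 on coverage. The deposited coverage of Chrna5 was only 0.278 of what its TPM would give, so the same pseudocount weighs more there. As plain TPM ratios, DKO over control was 2.51 for Chrna5 and 2.46 for Chrnb4.

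Chrna9, known from the efferent synapse of hair cells, had 10.9 TPM in the library labelled DKO, 9.11 in that labelled Isl1CKO, 6.98 in Pou4f1KO and 5.23 in control. Chrna7, which can form channels on its own, had 5.09 TPM in the library labelled DKO, 3.73 in that labelled Isl1CKO, 7.09 in Pou4f1KO and 4.62 in control. Chrnb1, a muscle receptor subunit, had 1.40 TPM in the library labelled DKO, 2.44 in that labelled Isl1CKO, 2.08 in Pou4f1KO and 3.05 in control. Chrna9 was highest in DKO, Chrna7 in Pou4f1KO and Chrnb1 in control. Chrna10, the partner of Chrna9 in hair cells, did not exceed 0.139 TPM, and Chrna1, the alpha subunit of muscle, did not exceed 0.183 TPM.

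The comparisons over the family were then counted against all 15049 genes that reached 1 TPM in any library, with a log2 ratio of at least 1 in size taken as 2-fold. Of the 40 compared members, 4 entered through 1 library only (Gabre, Gabrq and Glra1 through Pou4f1KO, Grm8 through Isl1CKO), so for those 4 a difference is in part fixed by the filter. For Pou4f1KO over control, 5 members were at least 2-fold higher (Glra1, Glra2, Grik1, Grin2d and Grin3a), beside 0.977% of all genes, and 1, Grm2, was lower, beside 1.73%. For DKO over control, 3 members were higher (Chrna5, Chrnb4 and Glra2), beside 1.01% of all genes, and Grm2 was lower, beside 2.34%. For Isl1CKO over control, Grm8 was higher, beside 0.585% of all genes, and Grik3 and Grin3a were lower, beside 0.618%. Pou4f1KO thus had the most members past 2-fold relative to control, 15.0% of the 40 against 2.7% of all genes. For DKO and Isl1CKO over control the counts were 4 of 40, against 3.35% of all genes, and 3 of 40, against 1.2%. With a pseudocount of 0.1 the members higher were 9 for Pou4f1KO over control and 6 for DKO over control, and on FPKM they were 2 and 1. The shares of all genes were not taken at those settings, so these counts cannot be set against the shares above. The 3 comparisons with control share the control library.

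Between mutants, DKO over Isl1CKO had 3 members higher (Glra2, Grik1 and Grin3a), beside 0.87% of all genes, and 2 lower (Grm2 and Grm8), beside 1.23%. In that comparison all 6 mesenchyme markers were higher, 3 of them at least 2-fold, with sums of 248 TPM in DKO and 124 TPM in Isl1CKO. All 4 endothelium markers were also higher, with sums of 64.1 TPM in DKO and 38.0 TPM in Isl1CKO, and the part of such cells in these counts was not tested. DKO over Pou4f1KO had 0 members higher, beside 0.645% of all genes, and 4 lower (Glra1, Grik3, Grin2d and Grin3a), beside 1.12%. In either direction these were 5 and 4 of the 40 members, against 2.1% and 1.76% of all genes. Under pan-neuronal scaling the last count was 2, with Grin2d and Grin3a under 2-fold, and the share of all genes was not taken there.

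**Figure D4:**
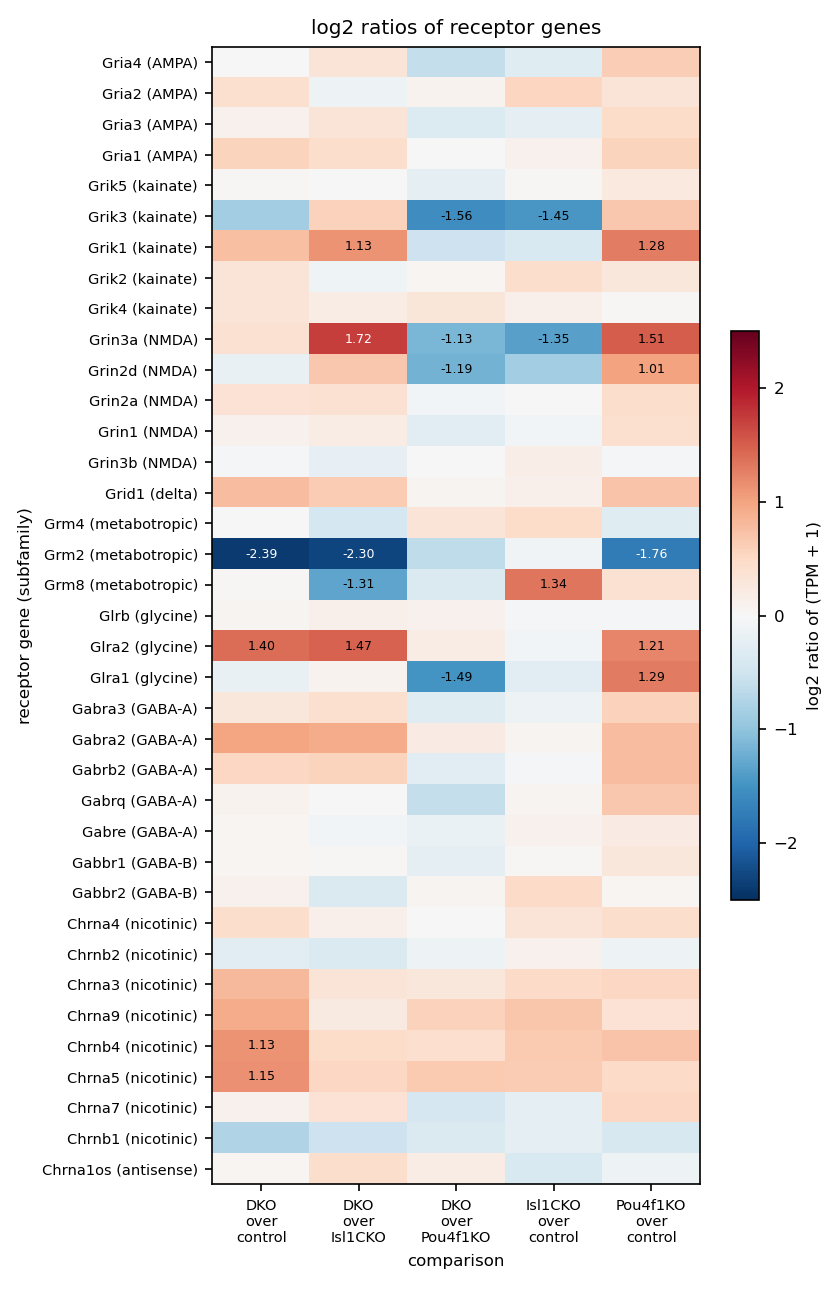
log2 ratio of (TPM + 1) of 37 of the 40 compared receptor genes (rows, by class) in the 5 comparisons (columns), red where the first-named library is higher and blue where it is lower, with the value printed where it is at least 1 in size. Grm2 holds the lowest values, -2.39 for DKO over control and -2.30 for DKO over Isl1CKO.

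With those past 2-fold included, the 40 members as a whole leaned to 1 side. The median log2 ratio of the 40 members for Pou4f1KO over control was 0.43, with 33 of 40 above 0, against a median of 0.02 over all genes, of which 53.8% were above 0. Scaling by pan-neuronal genes moved the median of all genes by -0.16 and left the members at 0.29. Over all 67 members, with no filter, the median was 0.22. For DKO over control it was 0.15, with 33 of 40 above 0, against -0.01 over all genes, and for DKO over Isl1CKO it was 0.28 against 0.01. The median for Isl1CKO over control was 0.05 against -0.02 over all genes, and -0.01 under pan-neuronal scaling. For DKO over Pou4f1KO it was -0.14 against -0.02, and 0.10 under pan-neuronal scaling, so its direction depended on the scaling. The hindbrain and neural tube list was 105 TPM in Pou4f1KO against 28.6 TPM in control, and the part of this list in the shift of Pou4f1KO was not tested. Within it, Pax2 went the other way, with 5.82 TPM in Pou4f1KO against 14.4 TPM in control.

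Each label could be read in 2 backgrounds that have no library in common. For the Isl1 label these were Isl1CKO over control and DKO over Pou4f1KO. Grik3 and Grin3a were at least 2-fold lower in both, 5.0% of the 40 members against 0.392% of all genes, with Grin3a under 2-fold for DKO over Pou4f1KO when scaled by pan-neuronal genes. Over the 40 members the ratios had a Pearson correlation of 0.73 and a Spearman correlation of 0.70, against 0.25 and 0.19 over all 15049 genes. For the Pou4f1 label the backgrounds were Pou4f1KO over control and DKO over Isl1CKO. Glra2, Grik1 and Grin3a were at least 2-fold higher and Grm2 lower in both, 4 of the 40 members against 0.91% of all genes. On FPKM, Grik1 was at 0.88 for DKO over Isl1CKO and Glra2 at 0.83 for Pou4f1KO over control, both under 2-fold. On coverage Glra2 was under 2-fold in both backgrounds, and on both measures the same pseudocount weighs more. Here the correlations were 0.83 and 0.77 over the members and 0.42 and 0.30 over all genes. The points are genes of the same 4 libraries and are not independent replicates.

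**Figure D5:**
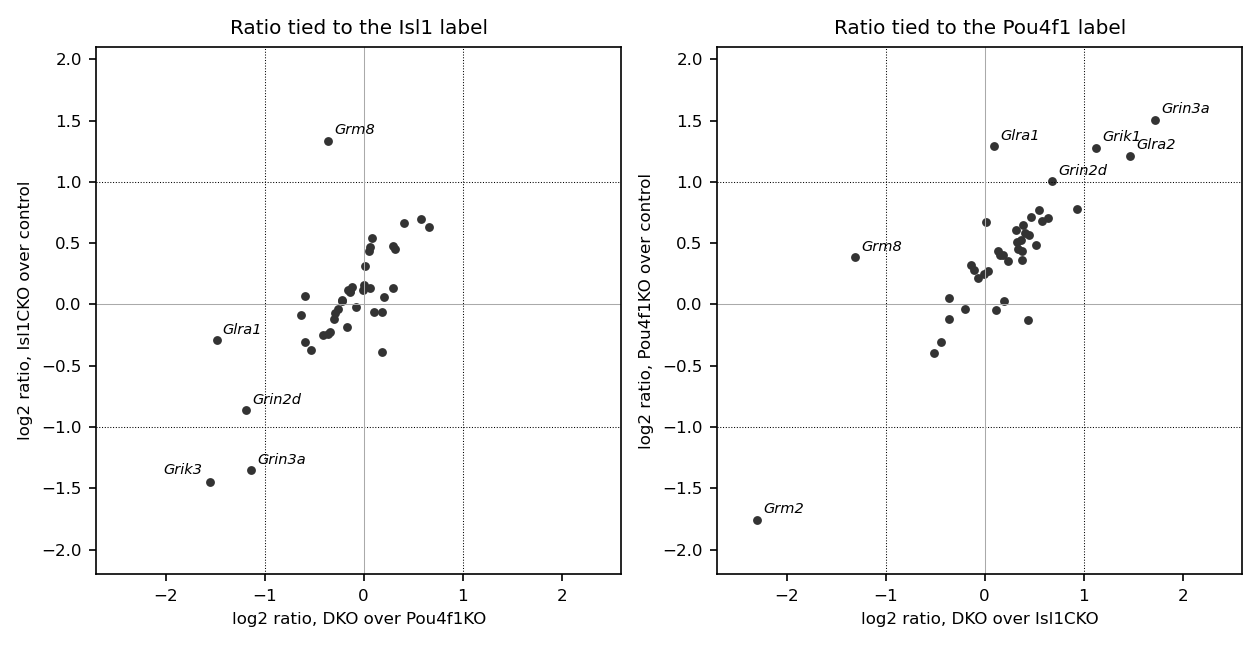
log2 ratio of (TPM + 1) tied to each label in its 2 backgrounds, 1 point per compared receptor gene (n = 40), with dotted lines at -1 and 1, the 2-fold limits. In the left panel Grik3 and Grin3a lie at the lower left, and in the right panel Grin3a, Grik1 and Glra2 lie at the upper right with Grm2 alone at the lower left.

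The departure of DKO from the sum of both single ratios was at most 0.54 in size for 8 of the 10 genes past 2-fold. It was 0.03 for Chrna5, -0.10 for Grik3, -0.15 for Grik1, 0.22 for Grin3a, -0.25 for Chrnb4, 0.25 for Glra2, -0.32 for Grin2d and -0.54 for Grm2. The other two, Glra1 at -1.20 and Grm8 at -1.69, were those at 1 TPM in a single-mutant library only. No spread between replicates stands behind these values.

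Of the 27 members below 1 TPM in all 4 libraries, the highest value was 0.916 TPM and the median of their highest values was 0.249 TPM. Just under the limit were Gabra5, at 0.912 TPM in the library labelled DKO, 0.467 in that labelled Isl1CKO, 0.916 in Pou4f1KO and 0.359 in control, Chrnb3, with up to 0.894 TPM in Isl1CKO, and Gabra4, with up to 0.771 TPM in DKO. Just over it were Gabre and Chrna1os, with up to 1.31 TPM in DKO. The 1 TPM line thus separates members of nearly equal level.

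Genes outside the family that build, anchor or modulate these receptors were read from a list of 52, of which 43 reached 1 TPM. Of these, Cbln2 and Chrng were at least 2-fold apart in some of the 5 comparisons. The share of the 43 was 2.33% for Pou4f1KO over control, against 2.7% of all genes, and 4.65% for DKO over control, against 3.35%. It was 2.33% for Isl1CKO over control, DKO over Isl1CKO and DKO over Pou4f1KO, against 1.2%, 2.1% and 1.76%. Cbln2, a cerebellin that bridges neurexins and delta receptors, had 9.83 TPM in the library labelled DKO, 3.95 in that labelled Isl1CKO, 10.8 in Pou4f1KO and 3.36 in control. It was higher with the Pou4f1 label in both backgrounds, by 1.43 for Pou4f1KO over control and 1.13 for DKO over Isl1CKO, in the same libraries in which Grid1 was higher. Chrng, the gamma subunit of the fetal muscle receptor, had 28.1 TPM in the library labelled DKO, 24.3 in that labelled Isl1CKO, 13.2 in Pou4f1KO and 10.1 in control. It was higher with the Isl1 label in both backgrounds, by 1.18 for Isl1CKO over control and 1.04 for DKO over Pou4f1KO. Of the muscle list, 6 of 13 genes reached 1 TPM, and its sum of 222 TPM in the library labelled DKO, 205 in that labelled Isl1CKO, 87.1 in Pou4f1KO and 66.1 in control was mostly Actc1. Myod1 and Myog stayed below 1 TPM and Ttn below 0.1 TPM, and the part of such cells in the level of Chrng was not tested. The most abundant partners were Gabarap, with 469 TPM in the library labelled DKO, 443 in that labelled Isl1CKO, 457 in Pou4f1KO and 418 in control, Gabarapl1, with 214 to 244 TPM, and Cacng7, an auxiliary subunit of AMPA receptors, with 107 to 127 TPM. The median log2 ratio of the 43 partners for Pou4f1KO over control was 0.23, beside 0.43 for the 40 receptor genes.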

How the data were processed

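RNA of 4 libraries of dissected ganglia, 1 per genotype, was extracted with Trizol and made into strand-specific libraries, per the labels' protocols. The submitters' processing notes name Trimmomatic, FastQC, HISAT2, SAMtools, StringTie and the build mm10, without order, versions or settings. The deposited gene tables hold TPM, FPKM and coverage (mean read depth per base), computed by the authors per the file headers. Rows that share a symbol were summed. Genes at 1 TPM in any library were compared by log2 ratios of (TPM + 1), which understate differences of low genes. The main scale was TPM as deposited. With 1 library per genotype there is no spread between replicates, and no test was run; fractional values without read counts also suited no count test. Depth came from coverage over FPKM and limits low genes most. The scripts (Python 3.11.15, pandas 2.3.3) were tested on simulated data. Genes were named if at least 2-fold apart in any comparison, among the 3 highest of their class, or the 3 nearest the 1 TPM limit on either side; other genes named, such as Grin1, Gabra2, Gabrb2, Chrna9 and Chrnb1, were chosen after their values were seen. The members and lists were chosen with earlier results of these data known. Promoter windows were matched by symbol for 48 of the 67 members. Alternatives were other pseudocounts, filters, FPKM, 3 scalings and coverage. A few members enter the counts, sums and shares but are not reported by name here.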

Additional observations from a re-analysis of the deposited data

Results flagged for a closer look

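Grm8 differed in sign between the backgrounds of each label. It had 0.242 TPM in the library labelled DKO, 2.08 in that labelled Isl1CKO, 0.593 in Pou4f1KO and 0.220 in control. Its log2 ratio tied to the Isl1 label was 1.34 for Isl1CKO over control and -0.36 for DKO over Pou4f1KO. With the Pou4f1 label it was 0.39 for Pou4f1KO over control and -1.31 for DKO over Isl1CKO. With 1 library per genotype the difference between the backgrounds was not tested. Its mean coverage was 1.36 reads per base in DKO, 9.84 in Isl1CKO, 3.17 in Pou4f1KO and 1.19 in control, so a single library holds most of its signal.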

How the results depend on the processing

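No paired analysis was possible because each genotype had 1 library, and no library could be left out. Of the 22 log2 ratios past 2-fold, none changed sign where it had a value, which was 18 of them with a filter of 5 TPM and on FPKM and all 22 elsewhere. Filters and pseudocounts cannot change a sign. FPKM and the scalings moved the median of all genes by at most 0.23. Unchanged signs were therefore nearly fixed in advance and say little of how stable these ratios are. With a pseudocount of 0.1, 9 members were at least 2-fold higher in Pou4f1KO than in control (5 with a pseudocount of 1), and for DKO over control 6 were higher and 2 lower (3 and 1). With a filter of 5 TPM, 0 members were higher for Isl1CKO over control and 1 was lower for DKO over Isl1CKO, since Grm8 left the comparison. On FPKM, 0 were higher for Isl1CKO over control, 2 for Pou4f1KO over control and 1 for DKO over control, and 1 was lower for DKO over Isl1CKO. Pan-neuronal scaling left 2 lower for DKO over Pou4f1KO and moved the median of all genes there by 0.23. Coverage scaled by library, an alternative chosen after seeing the data, left 1 higher for DKO over control. FPKM was lower than TPM in each library, so the same pseudocount weighed more there, and a pseudocount of 0.1 weighed less. The causes of the other moves beyond the filter were not tested, and the shares of all genes were not taken at these settings. The count of members that reached 1 TPM stayed within 1.5 times under the scalings and at 0.5 and 2 TPM. Grin2d for Pou4f1KO over control was 0.99 under median-of-ratios scaling.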
